A study of Homo sapiens with 6 samples.

Results

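Mitochondrial ribosomal protein genes are the nuclear genes whose symbols begin with MRPL, for the large subunit of the mitochondrial ribosome, or MRPS, for the small subunit. They were taken from the gene count table of A549 cells by symbol alone. The rule found 78 of 57773 rows, 48 MRPL and 30 MRPS, which carry 76 different symbols because MRPL30 and MRPS17 each have 2 rows. Of these, 76 rows had enough reads to be tested, among 15848 genes in all: 46 of the large and 30 of the small subunit.

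A549 is an established human lung adenocarcinoma cell line of alveolar epithelial origin. One group of 3 libraries came from A549 cells given recombinant human surfactant protein D (rhSP-D) at 10 µg/ml for 48 h. The other 3 came from A549 cells given vehicle for 48 h, the buffer that elutes rhSP-D in purification, at a matched volume. Surfactant protein D is a collectin, a secreted lectin of the lung lining fluid. All libraries were of poly(A) RNA from 1 line, no source says that replicates were separate cultures, and p-values therefore measure only the spread between these libraries, which may be technical.

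Mitochondria keep their own ribosome, which translates the mRNAs of the mitochondrial genome into core subunits of the respiratory chain and the ATP synthase. Its rRNAs are mitochondrially encoded, whereas all its proteins are encoded in the nucleus, made in the cytosol and imported. Some of these proteins have counterparts in bacterial ribosomes and others are found only in mitochondria. Inherited loss of single members causes combined deficiencies of oxidative phosphorylation.

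Total counts ranged from 11396193 to 26030880 per library, with vehicle replicate 1 the shallowest. Counts of 2 libraries of 1 group differed beyond sampling noise (chi-square over its degrees of freedom 1.92 to 2.15), and those of 2 groups differed more (3.90 to 6.15). Of 7 epithelial and A549 markers all were detected, with KRT18 at 4101 to 4315 CPM (counts scaled to library size), while EPCAM was at 1.47 to 2.56 CPM and the alveolar type II marker SFTPC at 0 to 0.298 CPM. The summed level of leukocyte markers was 80.8 to 86.5 CPM with vehicle and 89.6 to 95.2 CPM after rhSP-D, with the defining marker PTPRC at 0 to 0.0497 CPM. Fibroblast markers (5, with DCN at 0) summed to 9.59 to 13.3 and 11.2 to 13.2 CPM, and endothelial markers (3 of 4 in the table) to 0 to 0.0994 and 0.0545 to 0.117 CPM. Alveolar type II markers (5) summed to 83.3 to 86.2 CPM with vehicle and 79.8 to 82.2 CPM after rhSP-D, and the epithelial list to 11370 to 11520 and 11600 to 11810 CPM. The part of these small shifts in the results below was not tested.

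Mitochondrial ribosomal protein transcripts were mostly higher after rhSP-D, by small amounts. Of the 76 members tested, 26 rose (34.2%) and 0 fell at an adjusted p under 0.05, by edgeR's quasi-likelihood test adjusted over all genes, and 50 did not pass. Among all genes tested 9.31% rose and 6.63% fell, 15.9% in either direction. At an unadjusted p under 0.05, 42 members were higher and 1 lower. The share of all genes at that unadjusted threshold is not given here, so these counts have no background beside them. The median log2 change of the members, rhSP-D over vehicle, was 0.10 (range -0.13 to 0.28), beside -0.006 over all genes. It was positive in 69 members and negative in 7, whereas 48.4% of all genes had a positive change. The 26 that rose did so by 7.59% (MRPL3) to 21.3% (MRPS31), with a median of 11%, and 6 of them by more than 15%.

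In 39 members all 3 rhSP-D values lay above all 3 vehicle values, and in 2, MRPS27 and MRPS30, all lay below, where 16.2% and 15.4% of all genes did so. The groups were apart in 24 of the 26 members that rose and overlapped in MRPL4 and MRPL23. Of the 50 members that did not pass, 16 had a 95% interval that reached less than 10% higher, and 16 had one wholly above 0. The intervals are not adjusted for the number of genes. Those wholly above 0 belong to members already counted as higher at an unadjusted p under 0.05. The share of all genes with such intervals is not given here either. With vehicle replicate 1, 2 or 3 left out 22, 21 and 18 of the 26 passed, and with rhSP-D replicate 1, 2 or 3 left out 16, 22 and 20 did. In all 6 of these fits 12 passed: MRPL11, MRPL24, MRPL28, MRPL33, MRPL34, MRPL41, MRPL51, MRPS12, MRPS21, MRPS24, MRPS28 and MRPS34. The count also depends on the test: by DESeq2 12 members rose (5.56% of all genes), with libraries scaled by their totals alone 12 rose and MRPS30 fell (5.4% of all genes rose), at an adjusted p under 0.01 16 rose (5.93%), and against a minimum fold of 1.2 0 did (0.0189%).

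**Figure D1:**
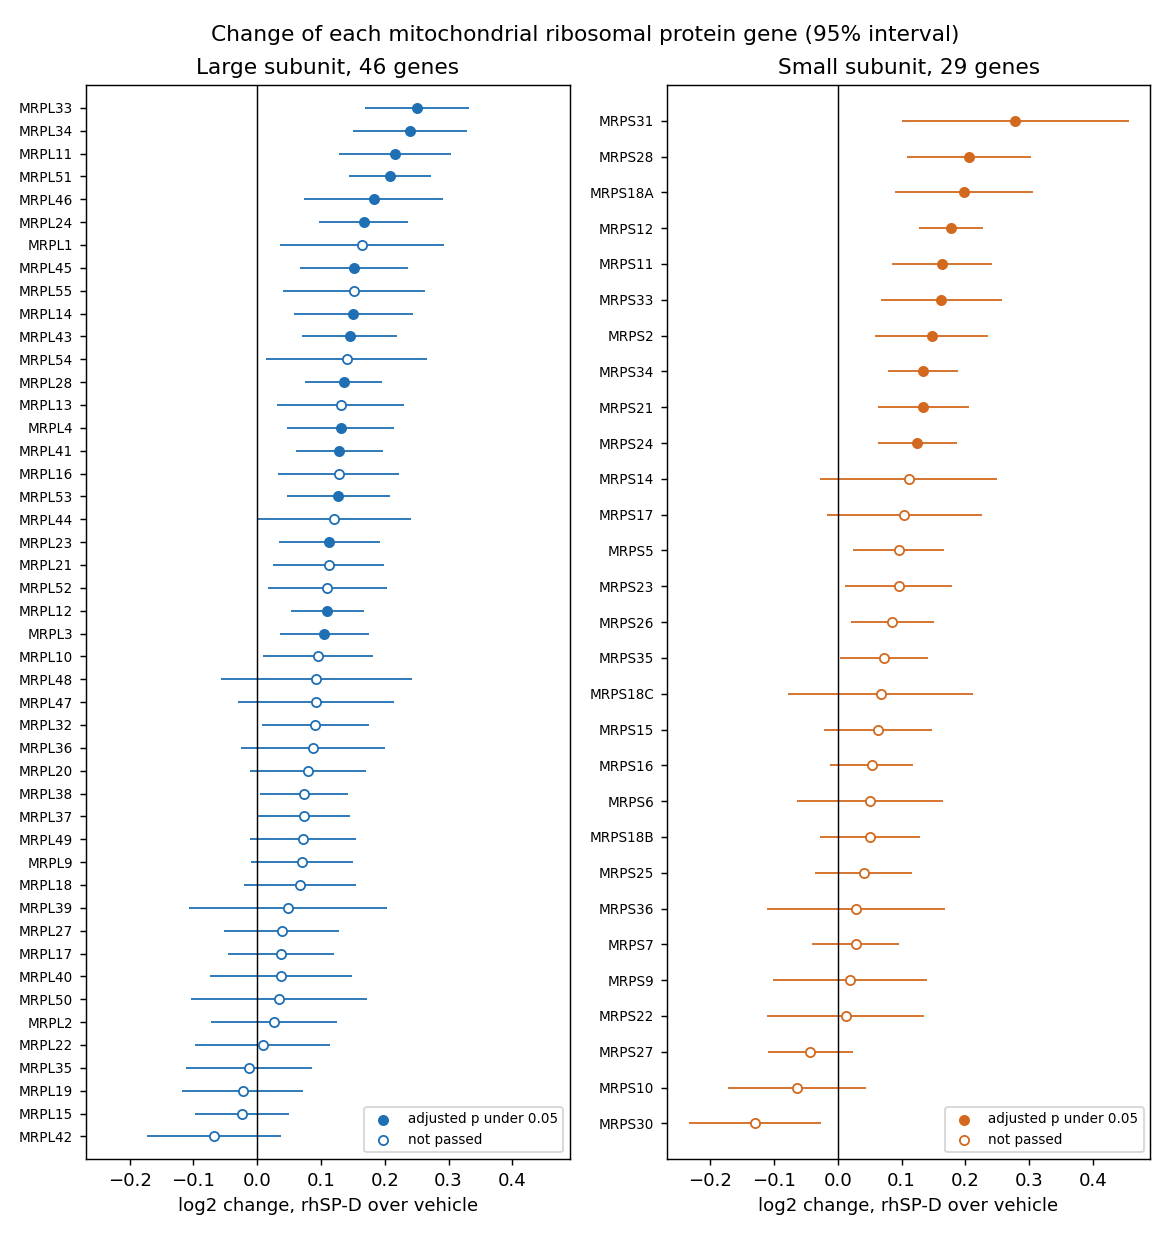
The log2 change (rhSP-D over vehicle, horizontal axis) of each tested member, 46 of the large subunit (left) and 29 of the small (right), with its 95% interval; filled points passed at an adjusted p under 0.05. Most points lie to the right of 0 in both subunits, from -0.13 for MRPS30 to 0.28 for MRPS31; the second row named MRPS17, with a standard error of 1.33, is not drawn.

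The large and small subunits had similar shares of members that rose. Of the large subunit 16 of 46 rose (34.8%), the median log2 change was 0.11 and 42 changes lay above 0. Of the small subunit 10 of 30 rose (33.3%), the median was 0.09 and 27 lay above 0. None of either fell. Symbols do not always follow the structure: MRPS18A and MRPS30 are proteins of the large subunit, and MRPS36 is now assigned to a dehydrogenase complex. Sorted that way, 17 of 48 large-subunit and 9 of 27 small-subunit members rose, with medians of 0.11 and 0.10. The difference between the subunits was not tested.

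Summed over its rows, the large subunit took 0.264, 0.268 and 0.265% of all counts in vehicle replicates 1 to 3, and 0.278, 0.276 and 0.279% in rhSP-D replicates 1 to 3. The small subunit took 0.198, 0.199 and 0.199% in vehicle and 0.205, 0.205 and 0.207% in rhSP-D. For both subunits every rhSP-D library lay above every vehicle library. All members together went from 0.464% ± 0.00262 to 0.484% ± 0.00264 (SD, n = 3 each). The ratio of large to small was 1.335, 1.347 and 1.331 in vehicle and 1.359, 1.350 and 1.347 in rhSP-D, or 1.338 ± 0.00833 and 1.352 ± 0.00625 (SD). The highest vehicle ratio and the lowest rhSP-D ratio met at 1.347, so the balance between the subunits moved by little more than its spread between libraries.

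**Figure D2:**
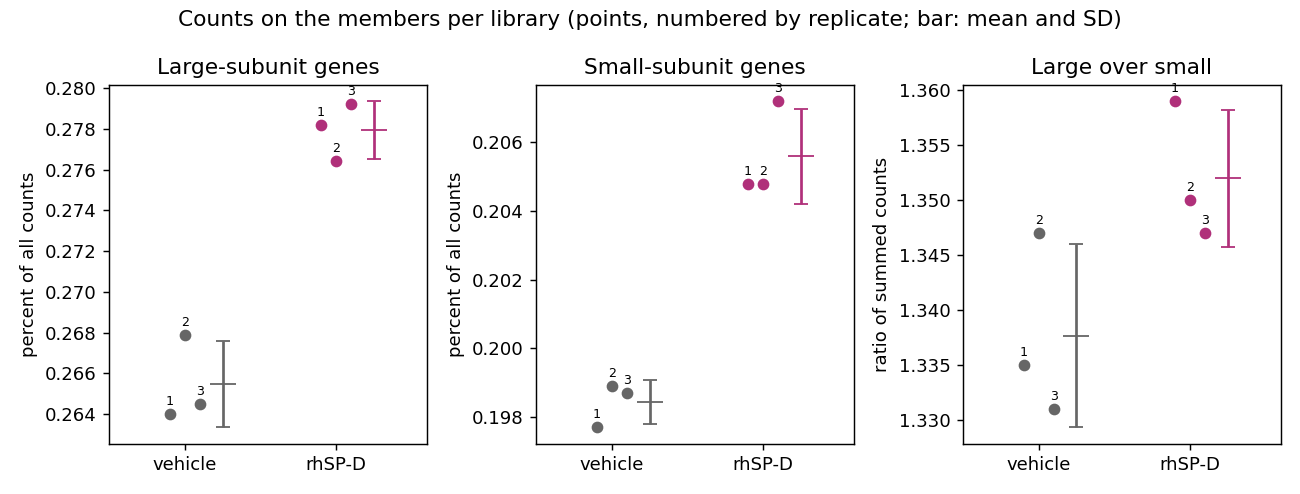
Percent of all counts on large-subunit genes (left) and small-subunit genes (middle), and the ratio of the 2 sums (right), per library, with points numbered by replicate and bars for the mean and SD. The shares separate the groups, at 0.264 to 0.268% against 0.276 to 0.279% for the large subunit, while the ratios meet at 1.347; the axes do not start at 0.

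Promoters are shown for 3 members that rose, 1 with the same motif that did not pass (MRPL27) and the member with the most negative change (MRPS30), picked after their values were seen. ETS-family factors, among them GABP (nuclear respiratory factor 2), and NRF1 are known regulators of nuclear genes for mitochondrial proteins. RefSeq promoters (GRCh38.p14, 250 bases before to 50 after the start) were given for 67 of 76 symbols, as 83 windows. The letters CCGGAAG, on either strand, stood in 32 of the 83 (38.6%), in 15.8% of promoters of genes tested and in 10.3% of all promoters in the table. The NRF1 motif was in 1 member promoter (1.2%), that of MRPL17, beside 1.84% and 1.24%, and no member window held both motifs. CCGGAAG stood in 13 of 33 promoters of members that rose (39.4%) and in 18 of 49 of the other members tested (36.7%). A match is a description of the letters, not of binding. Capitals mark CCGGAAG on the printed strand, or its reverse complement, in windows at chr19:38930704-38931003 (MRPS12, plus strand), chr2:27771469-27771768 (MRPL33, plus), chr13:40771141-40771440 (MRPS31, minus) and chr17:50373135-50373434 (MRPL27, minus). The window at chr5:44808697-44808996 (MRPS30, plus) holds neither CCGGAAG nor the NRF1 motif and has no capitals.
MRPS12: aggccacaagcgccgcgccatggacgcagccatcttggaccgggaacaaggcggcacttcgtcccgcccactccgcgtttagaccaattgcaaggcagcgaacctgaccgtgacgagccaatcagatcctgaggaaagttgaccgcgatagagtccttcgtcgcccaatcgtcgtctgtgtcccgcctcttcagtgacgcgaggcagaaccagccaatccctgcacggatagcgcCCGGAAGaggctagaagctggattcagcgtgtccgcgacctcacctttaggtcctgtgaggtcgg
MRPL33: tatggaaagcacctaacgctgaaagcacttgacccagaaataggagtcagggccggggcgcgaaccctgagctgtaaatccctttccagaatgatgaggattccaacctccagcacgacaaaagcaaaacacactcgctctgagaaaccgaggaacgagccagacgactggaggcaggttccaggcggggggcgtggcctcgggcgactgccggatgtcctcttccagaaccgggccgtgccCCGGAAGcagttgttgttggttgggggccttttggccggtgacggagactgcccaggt
MRPS31: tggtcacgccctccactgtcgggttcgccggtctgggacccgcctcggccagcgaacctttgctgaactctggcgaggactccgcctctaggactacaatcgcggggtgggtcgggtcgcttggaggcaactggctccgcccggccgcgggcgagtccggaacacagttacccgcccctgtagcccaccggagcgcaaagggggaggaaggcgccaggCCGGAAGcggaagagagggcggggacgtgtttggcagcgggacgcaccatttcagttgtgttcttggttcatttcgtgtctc
MRPL27: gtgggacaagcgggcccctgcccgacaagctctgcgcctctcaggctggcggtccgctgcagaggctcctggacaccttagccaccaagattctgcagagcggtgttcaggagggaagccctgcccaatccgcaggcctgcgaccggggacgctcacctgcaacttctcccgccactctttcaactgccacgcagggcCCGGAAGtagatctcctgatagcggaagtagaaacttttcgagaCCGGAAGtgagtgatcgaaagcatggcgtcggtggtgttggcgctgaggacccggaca
MRPS30: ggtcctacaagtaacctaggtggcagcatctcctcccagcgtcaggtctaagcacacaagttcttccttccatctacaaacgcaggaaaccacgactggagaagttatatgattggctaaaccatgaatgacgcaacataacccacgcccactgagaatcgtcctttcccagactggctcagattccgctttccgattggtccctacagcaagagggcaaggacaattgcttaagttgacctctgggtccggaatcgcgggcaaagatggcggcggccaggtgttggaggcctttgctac

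Within the small subunit, 4 of the 5 members listed around the decoding centre and the mRNA path rose (median log2 change 0.15). MRPS12, the counterpart of bacterial S12 that monitors codon pairing, lies on chromosome 19 from 38930548 to 38933162 of GRCh38 and had the smallest p of all members. Its level was 192, 189 and 186 CPM in vehicle replicates 1 to 3 and 217, 213 and 211 CPM in rhSP-D. The groups did not overlap, and MRPS12 rose by 13.1% (95% interval 9.22 to 17.1%, log2 change 0.18 ± 0.02 SE, adjusted p = 5.51e-06). Its exons overlap those of SARS2, on the opposite strand, over 349 of 2144 nt. SARS2, the mitochondrial seryl-tRNA synthetase, was at 68.4 ± 3.26 CPM with vehicle against 68.8 ± 3.19 CPM after rhSP-D (SD, n = 3, adjusted p = 0.851), with overlapping groups.

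MRPS28, a small-subunit protein at the mRNA exit side, was at 38.8, 39.3 and 37.6 CPM with vehicle and 45.7, 44.8 and 42.7 CPM after rhSP-D. The groups were apart, and it rose by 15.3% (adjusted p = 0.00273). MRPS24, at the mRNA entry, rose by 9.02% (adjusted p = 0.00412) and MRPS2, the counterpart of bacterial S2, by 10.8% (adjusted p = 0.0178). The call of MRPS2 was lost by DESeq2 and without vehicle replicate 2, rhSP-D replicate 1 or rhSP-D replicate 3. MRPS5, also at the mRNA entry, was 6.87% higher with its groups apart and did not pass (adjusted p = 0.0592).

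The small-subunit members that rose, those named above included, were of both origins. Of 19 rows with bacterial counterparts 7 rose (median 0.10), and of 10 found only in mitochondria 3 did (median 0.08). These counts go by symbol, with MRPS18A in the first set and MRPS30 in the second. MRPS34, a mitochondria-specific protein needed for a stable small subunit, was at 157, 162 and 162 CPM with vehicle and 181, 174 and 174 CPM after rhSP-D. These groups did not overlap, and it rose by 9.73% (adjusted p = 6.24e-04). MRPS11, the counterpart of S11 on the platform, was at 69.8, 71.4 and 66.5 CPM against 78.3, 75.0 and 78.8 CPM, again apart, and rose by 12% (adjusted p = 0.00296). MRPS21 rose by 9.71% and the mitochondria-specific MRPS33 by 11.9%.

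MRPS31, another mitochondria-specific protein, changed most among members and was also among the scarcer ones. It was at 13.3, 11.8 and 13.2 CPM with vehicle and 15.4, 14.2 and 16.7 CPM after rhSP-D. The groups were apart but wide, and the rise of 21.3% had an interval of 7.23 to 37.2% (adjusted p = 0.0262). The call was lost when vehicle replicate 2, rhSP-D replicate 1 or rhSP-D replicate 3 was left out.

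The 3 paralogues of bacterial S18 did not all pass. MRPS18A, whose protein sits in the large subunit, was at 28.5, 30.1 and 29.9 CPM with vehicle and 34.8, 34.1 and 33 CPM after rhSP-D. Its groups were apart and it rose by 14.7% (adjusted p = 0.00894). MRPS18B was 3.56% higher (interval -1.91 to 9.33%) and MRPS18C 4.80% higher (interval -5.22 to 15.9%), neither passing, with overlapping groups. The intervals of MRPS18A and MRPS18B overlap, and the difference between the paralogues was not tested.

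MRPS30 and MRPS27 were the members with all rhSP-D values below vehicle. MRPS30, a large-subunit protein related to MRPL37, was at 34.8, 38.2 and 36.5 CPM with vehicle and 33.9, 33.3 and 33.3 CPM after rhSP-D. That gap is narrow, and its log2 change of -0.13 ± 0.05 SE did not pass (adjusted p = 0.0824). With libraries scaled by their totals alone it passed, at -0.17 (adjusted p = 0.0181). Its paralogue MRPL37 had a change of 0.07 (adjusted p = 0.171). MRPS27, a pentatricopeptide-repeat protein that binds RNA, was at 90.9, 90.6 and 91.7 CPM against 89.6, 87.6 and 87.9 CPM and did not pass (log2 change -0.04, adjusted p = 0.431). MRPS36 was at 26.1 ± 2.84 CPM with vehicle against 26.3 ± 1.15 CPM after rhSP-D (SD, n = 3), with overlapping groups.

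In the large subunit the smallest p belonged to MRPL51, a mitochondria-specific protein on chromosome 12 from 6491886 to 6493841. Its level was 128, 131 and 120 CPM with vehicle and 143, 149 and 146 CPM after rhSP-D. The groups were apart, and it rose by 15.5% (interval 10.5 to 20.7%, log2 change 0.21 ± 0.03 SE, adjusted p = 1.84e-05). MRPL33, a small protein with a bacterial counterpart, on chromosome 2 from 27771717 to 27988087, was at 59.4, 56.3 and 57.6 CPM with vehicle and 67.9, 66.7 and 71.0 CPM after rhSP-D. It rose by 19% (log2 change 0.25 ± 0.04 SE, adjusted p = 4.22e-05), the largest change in the large subunit, with no overlap. MRPL34, likewise the counterpart of a bacterial protein, was at 50.01, 49.2 and 46.5 CPM against 55.6, 57.1 and 58.9 CPM and rose by 18.1% (adjusted p = 2.2e-04).

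Of the stalks of the large subunit, the factor-binding stalk recruits the translation factors. MRPL11, at the base of the factor-binding stalk, was at 46, 46.9 and 48.3 CPM with vehicle and 55.1, 53.4 and 55.9 CPM after rhSP-D, apart, and rose by 16.2% (adjusted p = 5.62e-04). MRPL12, whose copies form the mobile arm of that stalk, was at 157, 162 and 161 CPM against 179, 169 and 170 CPM, also apart, and rose by 7.93% (adjusted p = 0.00619). MRPL10, which anchors MRPL12, and MRPL1, of the stalk on the other side, were 6.83% and 12.1% higher and did not pass (adjusted p = 0.134 and 0.0744). Both passed when rhSP-D replicate 2 was left out. With rhSP-D replicate 1 left out 1 of these 4 stalk members passed, and MRPL12 did not (adjusted p = 0.0851).

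Around the exit tunnel, where the new chain meets the inner membrane, 3 of 5 members rose. In some other fits fewer did: 1 of 5 by DESeq2 and 1 of 5 without rhSP-D replicate 1. With trends in gene length and GC content taken out, 0 of 4 passed, MRPL45 not being in that fit. MRPL24, at the tunnel exit, was at 92.7, 92.0 and 97.7 CPM with vehicle and 107, 102 and 108 CPM after rhSP-D. The groups were apart and it rose by 12.3% (adjusted p = 8.55e-04). MRPL45, which docks the ribosome on the inner membrane, rose by 11.1% (adjusted p = 0.0101), and MRPL23, also at the exit, rose by 8.14% with overlapping groups (adjusted p = 0.0438). MRPL22 had a log2 change of 0.01, with an interval of -6.48 to 8.25%, and MRPL44 was 8.76% higher and did not pass (adjusted p = 0.172).

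Of the central protuberance, the crown that faces the small subunit, 1 of 6 members rose. MRPL46 was at 35.3, 35.6 and 31.3 CPM with vehicle and 38.2, 38.6 and 38.5 CPM after rhSP-D. Its groups were apart and it rose by 13.5% (adjusted p = 0.0169), a call lost without vehicle replicate 3 or rhSP-D replicate 1. MRPL18, MRPL27, MRPL38, MRPL40 and MRPL48 did not pass, with log2 changes of 0.07, 0.04, 0.07, 0.04 and 0.09. Of the core proteins MRPL2, MRPL3 and MRPL4, the last 2 rose, by 7.59% and 9.49%, MRPL4 with overlapping groups, and MRPL2 was 1.81% higher and did not pass. By DESeq2, or without vehicle replicate 1, vehicle replicate 3 or rhSP-D replicate 2, 0 of these 3 passed. Without vehicle replicate 2, rhSP-D replicate 1 or rhSP-D replicate 3, 1 did, as with length and GC trends taken out.

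Of the remaining large-subunit proteins, MRPL28 was at 109, 111 and 113 CPM with vehicle and 124, 122 and 121 CPM after rhSP-D, apart, and rose by 9.84%. The mitochondria-specific MRPL43, MRPL41 and MRPL53 rose by 10.6, 9.34 and 9.24%, and MRPL14, which has a bacterial counterpart, by 11%. By DESeq2 none of MRPL43, MRPL41, MRPL53 and MRPL14 passed (adjusted p = 0.0547, 0.0627, 0.159 and 0.155), nor with length and GC trends taken out. MRPL43 and MRPL41 passed in 14 and 13 of 18 alternatives, and MRPL53 and MRPL14 in 9 each. By origin, 10 of 29 rows of bacterial type rose (median 0.11) and 6 of 17 mitochondria-specific ones did (median 0.11).

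**Figure D3:**
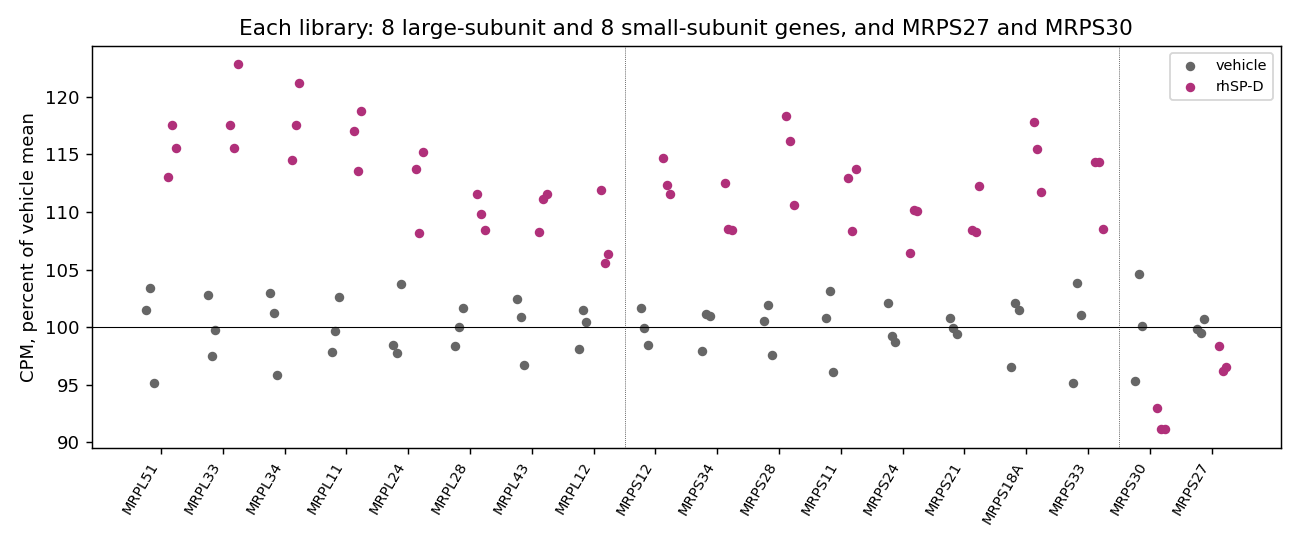
Level in each library as percent of the vehicle mean (vertical axis) for the 8 members with the smallest p in each subunit among those that rose, and for MRPS27 and MRPS30; grey points are vehicle and purple points rhSP-D, 3 libraries each. In all 16 that rose every rhSP-D point stands above every vehicle point, and in MRPS27 and MRPS30 every one stands below.

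Members differed far more in level than in response. Among tested members with an exon length in GENCODE 29, which leaves out MRPL45 and MRPS21, the levels per kilobase of merged exons were as follows. MRPL12 (155.7 CPM per kb in vehicle), MRPL51 (81.6) and MRPL15 (69.3) led the large subunit and MRPS34 (146), MRPS12 (88.3) and MRPS26 (83.0) the small. MRPL42 (2.23), MRPL48 (4.996) and MRPL46 (5.30) were lowest in the large subunit; MRPS18C (3.95) and MRPS22 (4.88) were lowest in the small after the second row of MRPS17 (0.320). Merged exons include those of rarely used transcripts, as for MRPL42 with 16393 nt, which lowers such values. The rank correlation between a member's mean CPM and its log2 change was 0.07 over 76 members, which share the same libraries. Calls did follow level: of the 25 scarcest members by CPM 4 rose, of the next 25 8 did, and of the 26 most abundant 14 did. The medians of these sets were 0.09, 0.10 and 0.11, so the scarcer members had similar changes with fewer passing.

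The rows with too few reads for the test were both named MRPL30. One (ENSG00000185414) had counts of 0, 4 and 0 with vehicle against 7, 14 and 1 after rhSP-D, the other (ENSG00000273155) 1, 0 and 0 against 3, 2 and 1. Their exons overlap genes on the same strand over 564 and 560 nt, and no source used here tells how reads in overlaps were counted. The second row named MRPS17 (ENSG00000249773) had counts of 10, 0 and 16 with vehicle against 19, 0 and 20 after rhSP-D, and its exons overlap those of the main MRPS17 row or ZNF713. Its change has no usable precision. In GENCODE 29, 43 members overlap an exon of another gene, 29 of them on the opposite strand. Of the 43, 41 were tested and 17 rose, as did 7 of 33 with no overlap. Among members described above, the overlap covers 701 of 1028 nt in MRPL12 and 324 of 1539 nt in MRPL33, both on the same strand. In MRPL51 it covers 486 of 1551 nt, on the opposite strand. Processed pseudogenes of these genes are another source of uncertain counts, since the handling of reads with several matches is not given either.

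Some members share a start region with another gene. A protein-coding gene began within 1000 nt on the other strand for 17 members. Of these partners 5 rose and 0 fell (9.31% of all genes rose), with a median log2 change of 0.10. Of the 5 that rose, 2 are themselves members counted above, MRPS11 and MRPL46, and the others are APBA3, NDUFS6 and TCP1. The pair MRPS11 and MRPL46 is itself divergent, with starts 34 nt apart on chromosome 15, and both rose, by 12% and 13.5%.

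**Figure D4:**
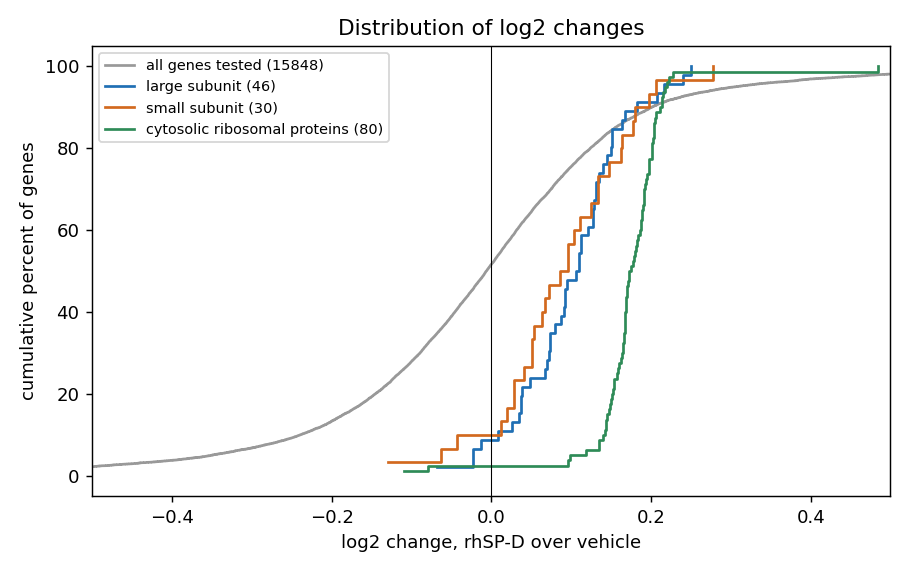
Cumulative percent of genes (vertical axis) at or below each log2 change (horizontal axis, cut at both ends) for all 15848 genes tested, 46 large-subunit members, 30 small-subunit members and 80 cytosolic ribosomal protein genes. The curves of both subunits lie to the right of all genes, with medians of 0.11 and 0.09 against -0.006, and the cytosolic curve lies further right, with a median of 0.17.

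The members' changes went along with gene length and base composition, as did those of other genes. Over all genes with annotation (15347) the rank correlation of log2 change with exonic length was -0.30 and with GC content 0.30. Over 74 members it was -0.30 and 0.35; genes share the libraries and these values carry no p. Members were shorter than most genes, with a median of 2544 nt against 4671 nt, and similar in GC content, at 47.7% against 48.9%. Members that rose had a median of 2134 nt and 55.1% GC, and those that did not pass 2776 nt and 46%.

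When trends with length and GC content were fitted in each library and taken out, 15 of 74 members rose (20.3%) and 0 fell, where 6.09% of all genes rose. The medians fell to 0.04 in the large subunit, with 7 of 45 higher, and 0.06 in the small, with 8 of 29 higher. Of the 26 members that rose before, 12 still did: MRPL3, MRPL11, MRPL33, MRPL34, MRPL46 and MRPL51, and MRPS11, MRPS12, MRPS24, MRPS28, MRPS31 and MRPS33. MRPS31 and MRPL46 had changes of 0.27 and 0.25, and MRPL33 0.21. MRPS12 passed by little, at 0.07 (adjusted p = 0.0452). MRPL12 and MRPS34, the members with the highest level per kilobase, turned negative, at -0.05 and -0.02, and did not pass. MRPL45 and MRPS21 have no entry in GENCODE 29 under their identifiers and were not in this fit.

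**Figure D5:**
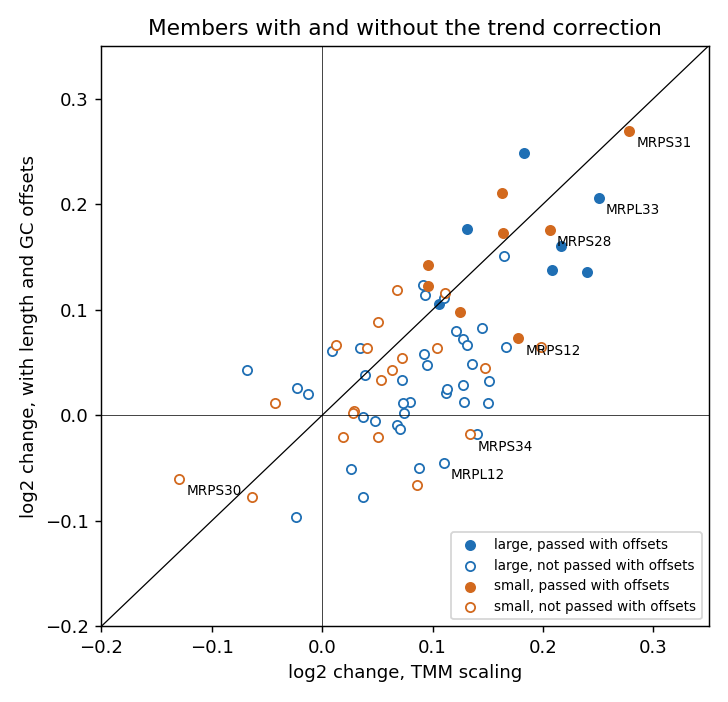
Log2 change of each member with length and GC trends taken out (vertical axis) against its log2 change without that step (horizontal axis); blue is the large and orange the small subunit, filled points passed with the step at an adjusted p under 0.05, and the diagonal marks equal values. Most points fall below the diagonal, MRPL12 and MRPS34 fall below 0, and MRPS31 stays near the line at 0.27.

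Other proteins of the mitochondrial ribosome, whose symbols fall outside the rule, behaved in part like the members: 3 of 7 rose and 0 fell (median 0.11). GADD45GIP1, in the large subunit, rose by 13.3% from 70.3 ± 1.72 to 79.6 ± 4.11 CPM (SD, n = 3 each, adjusted p = 0.00176). AURKAIP1 and CHCHD1, in the small subunit, rose by 12.9% and 11.2%. DAP3 and ICT1 were 4.91% and 7.80% higher and did not pass, and neither did PTCD3 and MRP63, with log2 changes of -0.02 and -0.04. With length and GC trends taken out, 0 of the 7 passed.

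Genes that work with the mitochondrial ribosome rose in shares near the 9.31% of all genes or below it. Of 16 translation factors 2 rose (12.5%) and 0 fell (median -0.005). They were TUFM, the elongation factor that brings aminoacyl-tRNA, which rose by 8.77% from 388 ± 10.8 to 422 ± 4.28 CPM (SD, n = 3 each, adjusted p = 1.37e-04), and its exchange factor TSFM, which rose by 9.53% (adjusted p = 0.0385). Of 24 assembly genes 2 rose (8.33%, median 0.04): MALSU1, which binds the large subunit, by 11%, and DDX28, an RNA helicase of large-subunit assembly, by 15.7%. Of 17 mitochondrial aminoacyl-tRNA synthetases 0 passed (median 0.005). The calls of TUFM, TSFM and DDX28 were lost with length and GC trends taken out, and those of TSFM, MALSU1 and DDX28 when single libraries were left out.

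Among 16 genes of mitochondrial transcription and RNA handling 2 rose and 1 fell (median 0.02). HSD17B10, a subunit of the mitochondrial RNase P, rose by 16.5% from 112 ± 4.29 to 131 ± 1.64 CPM (SD, n = 3 each, adjusted p = 6.62e-06). LRPPRC and SLIRP form a complex that stabilises mitochondrial mRNAs, and they moved apart: SLIRP rose by 15.1%, from 43.7 ± 2.08 to 50.5 ± 1.03 CPM, and LRPPRC fell by 8.22%, from 186 ± 7.08 to 171 ± 2.11 CPM (adjusted p = 0.00208 and 0.00196). With length and GC trends taken out SLIRP still passed, and HSD17B10 and LRPPRC did not. Of 9 regulators of nuclear genes for mitochondrial proteins 1 fell and 0 rose: the coactivator PPARGC1A fell by 11.3% (adjusted p = 0.0195), a call lost with those trends taken out or without any of 4 single libraries. NRF1 and GABPA, the ETS-family subunit of GABP, had changes of -0.10 and -0.05 and did not pass.

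Of the mitochondrial ribosome's own rRNAs, MT-RNR1 of the small subunit rose by 8.38%, from 982 ± 7.45 to 1065 ± 30.1 CPM (SD, n = 3 each, adjusted p = 3.94e-05), a call lost with length and GC trends taken out. MT-RNR2 of the large subunit was at 13415 ± 60.6 and 13451 ± 149 CPM and did not pass (interval -1.45 to 2.02%); with library totals alone its change was -0.04 and passed (adjusted p = 0.0214). These libraries were made from poly(A) RNA, which limits how rRNA levels can be read. Of the 13 mRNAs the ribosome translates 8 rose and 0 fell (median 0.10), where 9.31% of all genes rose. With the trends taken out 2 rose and 2 fell (median 0.005), where 6.09% of all genes rose.

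Proteins of the cytosolic ribosome showed a higher share of calls than the members: 75 of 80 rose and 0 fell, with a median of 0.17 (9.31% of all genes rose). With length and GC trends taken out, 69 of 79 rose (6.09% of all genes). They are far more abundant, so the shares of calls are not matched for precision, and the difference between the 2 families was not tested.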

How the data were processed

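The authors deposited raw read counts per gene, as whole numbers, for 6 libraries in a single table. Reads had been trimmed with cutadapt, aligned to GRCh38 with STAR (2.7.0a) and counted with featureCounts (2.0.0), as far as the tools listed per the submitters' processing notes tell. No source used here gives the annotation release, strand setting or the counting of reads with several matches. CPM use TMM-scaled totals. Genes passing edgeR's filterByExpr (minimum count 10, total 15) were fitted with edgeR 4.0.16 (R 4.3.3; robust quasi-likelihood, 2-sided), and p-values were adjusted over 15848 genes by the Benjamini-Hochberg method. "Rose" and "fell" mean an adjusted p under 0.05. The fit was also run on simulated counts of independent libraries, with results not reported here. Such counts cannot tell whether the spread between the present libraries is technical. Intervals are 95% and cover the fitted spread only.

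Coordinates, exon lengths and overlaps are from GENCODE 29, which held 76 of the 78 rows and need not be the authors' annotation. Alternatives were other scalings, filters and thresholds, a replicate block, each library left out, DESeq2 1.42.0, limma-voom (limma 3.58.1), thinning to one depth, length and GC offsets (splines of 5 df) and a minimum fold of 1.2. The members and lists were chosen with earlier results of these data known. Members named are the 8 with the smallest p of those that changed in each subunit, those that could not be tested, the 3 highest and lowest per kb, those of the roles listed and MRPS36, and in related lists the 3 with the smallest p. The other changed members, MRPL17, SARS2 and the other related genes were named after their values were seen. The value of 1 of the listed marker genes is not reported here.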

Additional observations from a re-analysis of the deposited data

How the results depend on the processing

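No member fell in any alternative except MRPS30 with library totals alone (1 small-subunit member), and both subunit medians stayed above 0 in every alternative. Members that rose numbered 16 of the large and 10 of the small subunit; they numbered 7 and 5 with library totals alone, 7 and 5 by DESeq2, 7 and 8 with length and GC offsets, 9 and 7 at an adjusted p under 0.01, and 0 and 0 against a minimum fold of 1.2. Leaving out single libraries gave 10 to 15 and 7 to 10 (6.48 to 8.26% of all genes rose), with 10 of the large subunit without vehicle replicate 3 or rhSP-D replicate 1; without the shallowest library, vehicle replicate 1, 14 and 9 rose. The large-subunit median moved from 0.108 to 0.067 with library totals alone, 0.089 thinned to one depth, 0.038 with offsets and 0.0925 to 0.123 with a library left out. The small-subunit median moved from 0.0905 to 0.0495 with library totals alone, 0.0823 by DESeq2, 0.0639 with offsets and 0.061 to 0.0886 with a library left out. Of all genes 1475 rose and 1051 fell; these were 856 and 1961 with library totals alone, 881 and 426 by DESeq2, 934 and 568 with offsets, 939 and 526 at 0.01, 3 and 3 against the minimum fold, and 1042 to 1336 and 636 to 892 with a library left out (643 lower without vehicle replicate 3, 636 without rhSP-D replicate 1). Library totals alone moved the median of all genes to -0.05. MRPL11, MRPL33, MRPL34, MRPL51, MRPS12 and MRPS28 were called in 17 of 18 alternatives, all but the minimum fold, and 12 of the 26 with each library left out. The cause of these moves was not tested.

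Same-numbered libraries did not deviate together (correlations of deviations -0.10, -0.08 and 0.03), so numbers were not taken to pair samples. With the replicate block 16 and 10 members rose, 25 of the 26 among them, and 1374 genes rose and 945 fell.

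Of the members tested, 17 of 74 turned sign with offsets and 11 of 76 with library totals alone. Only members named by the rule or because they rose, and related genes named in the report, are listed here where their log2 change turned sign; of these, MT-RNR2 with library totals alone passed (adjusted p = 0.0214). With offsets they were MRPL12 at -0.0452, MRPL18 at -0.00885, MRPL2 at -0.0514, MRPL40 at -0.0774, MRPL42 at 0.0428, MRPS18B at -0.0205, MRPS26 at -0.0664, MRPS27 at 0.0118, MRPS34 at -0.0181, GABPA at 0.0133, MT-RNR2 at -0.0363, PTCD3 at 0.0593 and SARS2 at -0.0657. With library totals alone they were MRPL2 at -0.0151, MRPL22 at -0.0322, MRPL27 at -0.00263, MRPL40 at -0.00389, MRPS22 at -0.0286, MRPS36 at -0.0127, MT-RNR2 at -0.0371 and SARS2 at -0.0246. Thinned to one depth they were MRPL2 at -0.00774, MRPS22 at -0.0309 and SARS2 at -0.0368. With upper-quartile factors MT-RNR2 was at -0.000522. With each library left out in turn they ranged, for MRPL22 from -0.0348 to 0.0391, MRPL40 from -0.00124 to 0.0674, the second MRPS17 row from -0.453 to 0.718, MRPS22 from -0.0276 to 0.0505, MRPS36 from -0.0592 to 0.0783, GABPA from -0.103 to 0.0236, MT-RNR2 from -0.00583 to 0.00917, PTCD3 from -0.0506 to 0.0030 and SARS2 from -0.0253 to 0.0445.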
